A study of Mus musculus with 2 samples.

Results

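Tetraspanins are small membrane proteins that cross the membrane several times. The 6 described here, Cd9, Cd63, Cd82, Cd81, Cd37 and Cd53, were taken by symbol from the 31053 genes of the count tables, and all 6 were found. They were followed in cortical myeloid cells in which 200 or more genes were detected and no more than 10% of UMIs (unique molecular identifiers, each marking 1 captured transcript) were mitochondrial. The control library gave 555 such cells and the photoconversion library 317. Members were compared between cells with more Cst7 than P2ry12 UMIs (Cst7-dominant), cells with the opposite balance (P2ry12-dominant), and libraries. Cst7, a cystatin, marks the disease-associated state of microglia around amyloid plaques, and P2ry12, a purinergic receptor, marks the homeostatic state.

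All animals were males of strain C57BL/6J, 5xFAD hemizygous and 5.5 months old at collection. The 5xFAD transgenes drive mutant human amyloid precursor protein and presenilin in neurons and produce amyloid plaques. Control mice received 5 uL of the photosensitiser Visudyne alone. Photoconversion mice received 5 uL of Visudyne followed by 5 photoconversion steps through the skull with 689-nm red light, which ablates meningeal lymphatic vessels. Injections began at 4 months and were repeated after 3 weeks, with cortex taken 3 weeks after the last. Singlet, SYTOX-, Ly6G-, CD45+, CD11b+ cells of 3 mice were pooled into 1 droplet library per group, so neither a wild-type nor a light-only group enters the comparisons and no variation between mice can be estimated. No test was made, every library difference is one between 2 libraries, and all 95% intervals given in brackets cover counting error only.

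Tetraspanins associate laterally with integrins, immunoglobulin-family proteins, proteases and one another, and so organise adhesion, fusion and signalling platforms in the membrane. Several are sorted into multivesicular bodies and serve as markers of extracellular vesicles. In microglia, Cd9 and Cd63 are commonly listed among genes of the plaque-associated state, Cd81 is expressed broadly, and Cd37 and Cd53 are restricted to leukocytes.

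The upstream windows of Cd9, Cd37 and Cd82, the last being the member with the lowest state ratios, overlap annotated exons and are not printed. The 3 members printed are Cd63, higher in Cst7-dominant cells, and Cd81 and Cd53, lower in them. Their RefSeq sequences upstream of the transcription start are printed from 250 to 12 bases before the start, on the strand of the gene, assembly GRCm38.p6, with searched motifs in capitals. They lie at chr10:128909095-128909333 on the plus strand for Cd63, chr7:143052500-143052738 on the plus strand for Cd81 and chr3:106790161-106790399 on the minus strand for Cd53, and none overlaps an annotated exon.
Cd63: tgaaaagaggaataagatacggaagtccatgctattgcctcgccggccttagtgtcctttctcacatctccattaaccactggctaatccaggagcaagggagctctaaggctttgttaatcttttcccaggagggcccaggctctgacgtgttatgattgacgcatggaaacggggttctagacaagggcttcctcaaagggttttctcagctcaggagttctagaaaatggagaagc
Cd81: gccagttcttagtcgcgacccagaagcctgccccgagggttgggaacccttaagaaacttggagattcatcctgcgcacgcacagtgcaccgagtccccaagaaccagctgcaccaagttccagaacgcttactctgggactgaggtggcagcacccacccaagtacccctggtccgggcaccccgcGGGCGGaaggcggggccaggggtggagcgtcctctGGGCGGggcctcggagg
Cd53: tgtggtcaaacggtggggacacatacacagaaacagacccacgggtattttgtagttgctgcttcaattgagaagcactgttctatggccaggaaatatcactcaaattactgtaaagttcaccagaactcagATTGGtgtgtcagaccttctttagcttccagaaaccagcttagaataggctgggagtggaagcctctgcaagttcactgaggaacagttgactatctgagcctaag
Motifs searched on both strands were the E-box CACGTG, a PU.1-type ETS site GAGGAAGT, the GC box GGGCGG, the CCAAT box CCAAT, the TATA box TATAAA and the AP-1 site TGAGTCA. Cd81 held 2 GC boxes, 63 and 28 bases before the start, and 15 CpG dinucleotides in a window of 65.3% GC. Cd53 held a reverse CCAAT box, ATTGG, 117 bases before the start, with 2 CpG dinucleotides and 45.2% GC. Cd63 held none of the searched letters in this window, with 6 CpG dinucleotides and 48.5% GC. Of 32817 mouse promoters of the same length, 31.1% held a GC box, 33.0% a CCAAT box, 12.04% a TATA box, 5.66% an E-box, 4.34% an AP-1 site and 2.28% the PU.1-type site, and the median promoter had 5 CpG dinucleotides. The Cd63 start lies inside the annotated gene, downstream of its most 5′ annotated end. A match is a match of letters only.

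The genes themselves lie, in the GENCODE annotation of mm10, on chromosome 6 for Cd9 (125460266 to 125494791, minus strand), chromosome 10 for Cd63 (128900989 to 128912822, plus) and chromosome 2 for Cd82 (93419111 to 93463140, minus). Cd81 (143052739 to 143067934, plus) and Cd37 (45233632 to 45239115, minus) both lie on chromosome 7, and Cd53 lies on chromosome 3 (106759921 to 106790149, minus). Genes that overlap them held at most 1 UMI in the kept cells where the tables list them. Whether counting used strand is not given, so reads of a member and of an antisense neighbour cannot be told apart.

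The kept cells carried the microglial identity given by the labels. All 12 microglia markers checked were detected in each library, with a summed level of 58428 CPM (the UMIs of a gene scaled to a fixed total per group of cells) in the control and 56386 CPM after photoconversion. By a marker rule 17 control and 8 photoconversion cells stood apart, of which 14 and 8 held more UMIs of another type's markers than of microglia markers and 3 and 0 only had fewer than 3 microglia marker UMIs. Border macrophage markers summed to 39.6 and 9.91 CPM with Lyve1 at 0 in both libraries, neutrophil markers to 2.06 and 4.96 CPM, and endothelial and mural markers to 341 and 260 CPM. Lymphocyte markers summed to 291 and 289 CPM, with 4 and 5 of 8 genes at 0. Astrocyte markers summed to 189 and 161 CPM, oligodendrocyte markers to 181 and 150 CPM, and monocyte markers to 101 and 19.3 CPM. Of the barcodes 27 occurred in both libraries, and 0 of these were kept. The median depth of kept cells was 2670 and 3410 UMIs for control and photoconversion, out of library totals of 2672902 and 2038693 UMIs.

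The state split followed known markers of microglial states. The control library held 290 P2ry12-dominant and 207 Cst7-dominant cells, and the photoconversion library 133 and 157, so that Cst7-dominant cells made up 37.3% (33.3 to 41.5%) and 49.5% (43.9 to 55.2%) of kept cells. All 12 measured markers of disease-associated microglia were higher in Cst7-dominant cells of each library, and all 9 measured homeostatic markers were lower. Cst7 and P2ry12, which set the split, were left out of these counts. Apoe, a lipid carrier of the disease-associated state, stood 4.03-fold higher in the control and 4.81-fold higher after photoconversion. Cst7-dominant cells were also deeper, with a median of 4655 against 2206.5 UMIs in the control and 5852 against 2739 UMIs after photoconversion.

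Among the 6 tetraspanins Cd63 was higher in Cst7-dominant cells, Cd81, Cd53 and Cd82 were lower, and Cd9 differed little. Cd37 was lower but short of the 1.5-fold line used as the call, at 0.683 in the control and 0.745 after photoconversion. The members past that line were the same in the 2 libraries, where 1 of 6 members was higher and 3 of 6 were lower by at least 1.5-fold. In the control library 13.5% of the 2479 genes with at least 100 UMIs were higher by that fold and 27.6% were lower. After photoconversion 15.9% of 1871 genes were higher and 23.5% lower. Among genes with at least 500 UMIs, a minimum that 5 of the 6 members reach, the balance turned, with 29.4% higher and 16.9% lower in the control and 29.8% and 13.5% after photoconversion. The median log2 ratio of the members was -0.69 in the control and -0.56 after photoconversion, against -0.19 and -0.05 for all genes tested. The members' values are a description of these 6 chosen genes.

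**Figure D1:**
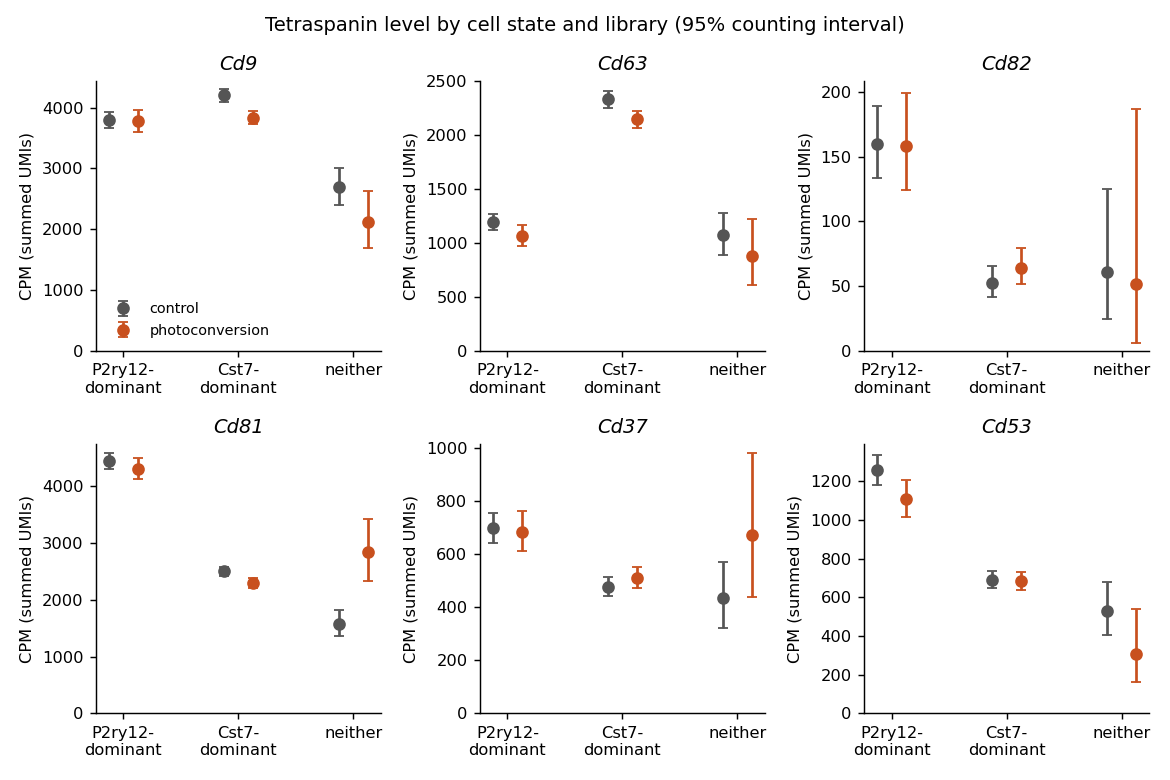
Level of each tetraspanin (y axis, CPM of summed UMIs, from 0) by cell state (x axis) in the control (grey) and photoconversion (orange) library, with bars for the 95% counting interval. Cd63 is the only panel of the 6 in which the Cst7-dominant points stand far above the P2ry12-dominant ones, at 2334 and 2148 against 1196 and 1067 CPM.

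Cd63, a tetraspanin of late endosomes, lysosomes and exosomes, was measured at 1196 CPM (1123 to 1272) in P2ry12-dominant and 2334 CPM (2256 to 2414) in Cst7-dominant cells of the control library. After photoconversion it was measured at 1067 CPM (976 to 1165) and 2148 CPM (2069 to 2228). The 2 Cst7-dominant groups were high and the 2 P2ry12-dominant groups low, and no interval of one state overlapped one of the other. The ratio of Cst7-dominant to P2ry12-dominant cells was 1.95 (1.82 to 2.10) in the control and 2.01 (1.83 to 2.22) after photoconversion. Per cell, the mean was 3.47 UMIs in P2ry12-dominant and 16.5 UMIs in Cst7-dominant control cells, and 3.75 and 17.9 UMIs in photoconversion cells, a step that also holds the difference in depth. With every cell thinned to 1000 UMIs, a Cd63 UMI was found in 59.1% of P2ry12-dominant and 78.7% of Cst7-dominant control cells, and in 55.5% and 81.7% of photoconversion cells. Thinning left out 116 control and 45 photoconversion cells with fewer UMIs, and the shares without thinning were 75.9% and 90.8% in the control and 75.2% and 93.6% after photoconversion. Among these thinned cells the Cd63 ratio was 1.56 (1.33 to 1.82) in the control and 1.92 after photoconversion. When the state too was set from the thinned UMIs, which changes the cells in each group, the ratios were 1.41 (1.204 to 1.66), short of 1.5-fold, and 1.76.

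Cd9, which partners integrins and the immunoglobulin-family protein Igsf8 and controls membrane fusion, was measured at 3792 CPM (3661 to 3926) in P2ry12-dominant and 4198 CPM (4094 to 4305) in Cst7-dominant control cells. After photoconversion the levels were 3777 CPM (3603 to 3957) and 3827 CPM (3722 to 3935). The control Cst7-dominant group was the high one, and the intervals of the other 3 groups overlapped one another. The state ratio was 1.11 (1.06 to 1.16) in the control and 1.01 (0.960 to 1.07) after photoconversion. In cells thinned to 1000 UMIs a Cd9 UMI was found in 88.03 to 90.2% of cells of all 4 groups. Thinned levels were 4116 CPM in P2ry12-dominant and 3973 CPM in Cst7-dominant control cells, and 4059 and 3676 CPM after photoconversion, lower in Cst7-dominant cells. As a mean over all cells of a group, without thinning, Cd9 was at 3847 and 3825 CPM in the control and 3969 and 3528 CPM after photoconversion. With the state also set from the thinned UMIs, the ratio was 0.939 in the control and 0.880 after photoconversion, likewise on the other side of 1.

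Cd82, known as a metastasis suppressor that limits the signalling of its partner receptors, was the sparsest member, with 134, 77, 74 and 84 UMIs in the 4 groups, in the order of the levels that follow. Its levels were 159 CPM (134 to 189) in P2ry12-dominant and 52.5 CPM (41.4 to 65.6) in Cst7-dominant control cells, and 158 CPM (124 to 199) and 64.1 CPM (51.2 to 79.4) in photoconversion cells. The groups separated by state and overlapped by library. The state ratio was 0.329 (0.245 to 0.439) in the control and 0.405 (0.293 to 0.562) after photoconversion. After thinning a Cd82 UMI was left in 16.4% and 4.92% of control cells and in 17.6% and 3.52% of photoconversion cells (P2ry12-dominant first in each pair). The intervals of the states were separate, at 11.9 to 21.8% and 2.27 to 9.13% in the control and 11.3 to 25.7% and 1.15 to 8.03% after photoconversion. Most thinned cells held no Cd82 UMI, and no change between libraries can be read from these shares.

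Cd81, a partner of integrins and of immune co-receptors that also marks extracellular vesicles, was measured at 4433 CPM (4292 to 4578) in P2ry12-dominant and 2497 CPM (2417 to 2579) in Cst7-dominant control cells. The photoconversion library gave 4299 CPM (4113 to 4491) and 2293 CPM (2212 to 2377). The P2ry12-dominant groups were high in each library with overlapping intervals, while the intervals of the Cst7-dominant groups did not overlap each other. The state ratio was 0.563 (0.538 to 0.590) in the control and 0.533 (0.504 to 0.565) after photoconversion. Mean UMIs per cell nevertheless were higher in Cst7-dominant cells, at 17.7 against 12.8 in the control and 19.1 against 15.1 after photoconversion, since Cst7-dominant cells held more UMIs of all genes. Cd81 therefore took a smaller share of a larger count. Among cells with at least 3000 UMIs the control ratio was 0.678 (0.642 to 0.716), short of 1.5-fold.

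Cd53, a leukocyte tetraspanin, had the same direction as Cd81. It was measured at 1258 CPM (1183 to 1336) in P2ry12-dominant and 691 CPM (649 to 734) in Cst7-dominant control cells, and at 1110.0 CPM (1017 to 1210) and 685 CPM (641 to 731) in photoconversion cells. Levels separated by state, and within a state the intervals of the 2 libraries overlapped. The state ratio was 0.549 (0.503 to 0.599) in the control and 0.617 (0.553 to 0.689) after photoconversion. At 1000 UMIs per cell, a Cd53 UMI was found in 69.8% of P2ry12-dominant and 52.5% of Cst7-dominant control cells, and in 68.1% and 40.8% of photoconversion cells. Among cells with at least 3000 UMIs the photoconversion ratio was 0.698, short of 1.5-fold.

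Cd37, another leukocyte tetraspanin with roles in adhesion and immune signalling, was measured at 697 CPM (642 to 756) in P2ry12-dominant and 476 CPM (442 to 513) in Cst7-dominant control cells. The photoconversion values were 684 CPM (611 to 764) and 510.0 CPM (472 to 550.2). Groups of different state did not overlap, and groups of the same state did. The state ratio was 0.683 (0.611 to 0.764) in the control and 0.745 (0.651 to 0.854) after photoconversion, short of the 1.5-fold line. Of the members lower past that line, the nearest to Cd37 were Cd81 in the control and Cd53 after photoconversion. A Cd37 UMI was left by thinning in 53.9% and 35.5% of control cells and in 51.3% and 32.4% of photoconversion cells, P2ry12-dominant first.

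For comparison with the leukocyte members, 17 control cells were set aside that held more UMIs of another type's markers than of microglia markers, or fewer than 3 microglia marker UMIs, with endothelial and mural markers at 15423 CPM and monocyte markers at 2741 CPM. These cells had a median of 801 UMIs. They held 3 Cd37 UMIs (61.4 CPM) in 11.8% of cells and 7 Cd53 UMIs (143 CPM) in 23.5% of cells. Without thinning, Cd37 was found in 75.9% of P2ry12-dominant and 72.9% of Cst7-dominant control cells and Cd53 in 81.0% and 78.7%, at median depths of 2206.5 and 4655 UMIs. These few cells are not free of leukocyte RNA, 5 of them belong to one of the 2 states, and their levels rest on 3 and 7 UMIs. As a mean over cells Cd37 was at 422 CPM in them against 476 CPM in Cst7-dominant control cells, so they set no firm background for Cd37.

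**Figure D2:**
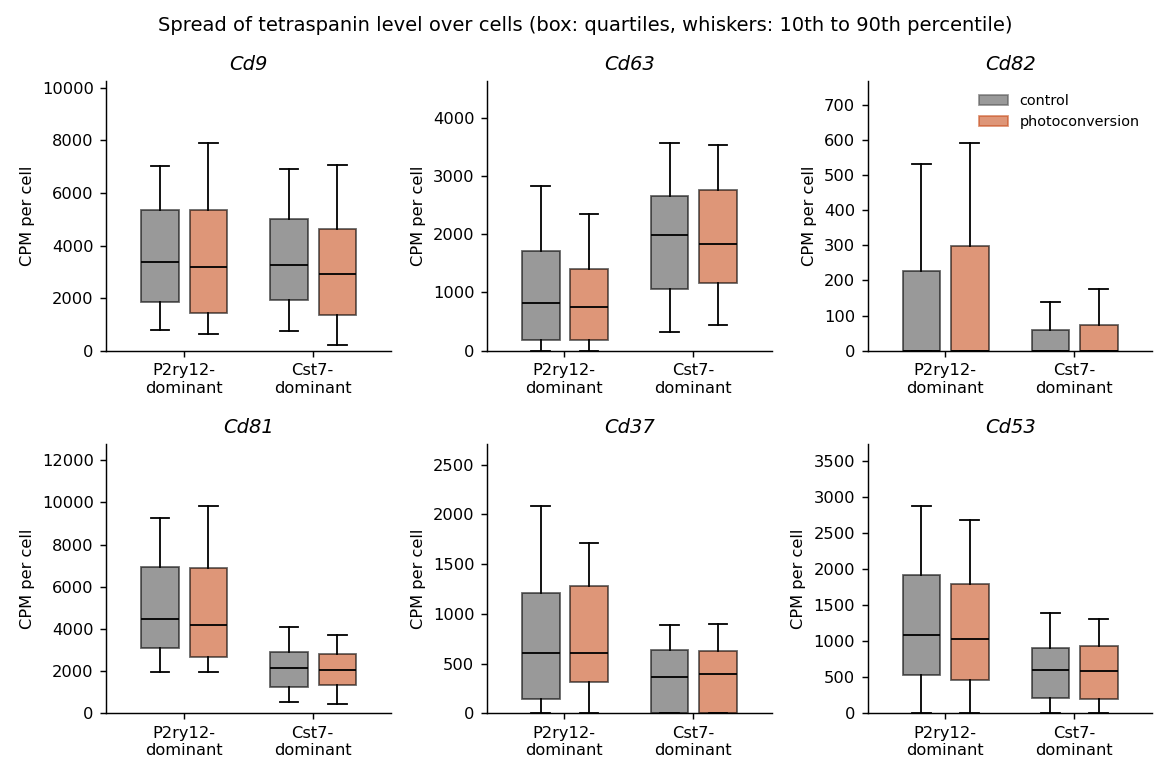
Spread over single cells of each tetraspanin (y axis, CPM per cell, from 0) in P2ry12-dominant and Cst7-dominant cells (x axis) of the control (grey) and photoconversion (orange) library, with boxes for the quartiles, a line for the median and whiskers for the 10th and 90th percentile. The whiskers of the states overlap for every member, and the median of Cd63 is 816 against 1983 CPM and that of Cd81 4497 against 2137 CPM in the control.

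Single cells of the 2 states overlapped for all 6 members, so the split between them is one of averages. The median control cell held 816 CPM of Cd63 in the P2ry12-dominant and 1983 CPM in the Cst7-dominant group, and the middle 80% of cells ran from 0 to 2832 CPM and from 319 to 3561 CPM. For Cd81 the medians were 4497 and 2137 CPM, and the middle 80% ran from 1953 to 9258 CPM and from 538 to 4100 CPM.

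The opposite course of Cd63 and Cd81 gave the states different proportions of tetraspanin transcripts. For every Cd81 UMI there were 0.270 Cd63 UMIs (0.251 to 0.289) in P2ry12-dominant and 0.935 (0.892 to 0.980) in Cst7-dominant control cells, and 0.248 (0.225 to 0.274) and 0.936 (0.889 to 0.986) in photoconversion cells. Such a ratio does not depend on how a library is scaled, and its absolute size depends on how well each transcript is captured. Cd9 per Cd81 likewise stood at 0.855 and 1.68 in the control and at 0.879 and 1.67 after photoconversion. Cd53 per Cd81 was 0.284 (0.265 to 0.304) and 0.277 (0.258 to 0.297) in the 2 control states and 0.258 (0.234 to 0.285) and 0.299 (0.277 to 0.322) after photoconversion, a much smaller step than that of Cd63 per Cd81. Cd37 per Cd53 was 0.554 (0.5003 to 0.614) and 0.690 (0.626 to 0.761) in the control.

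**Figure D3:**
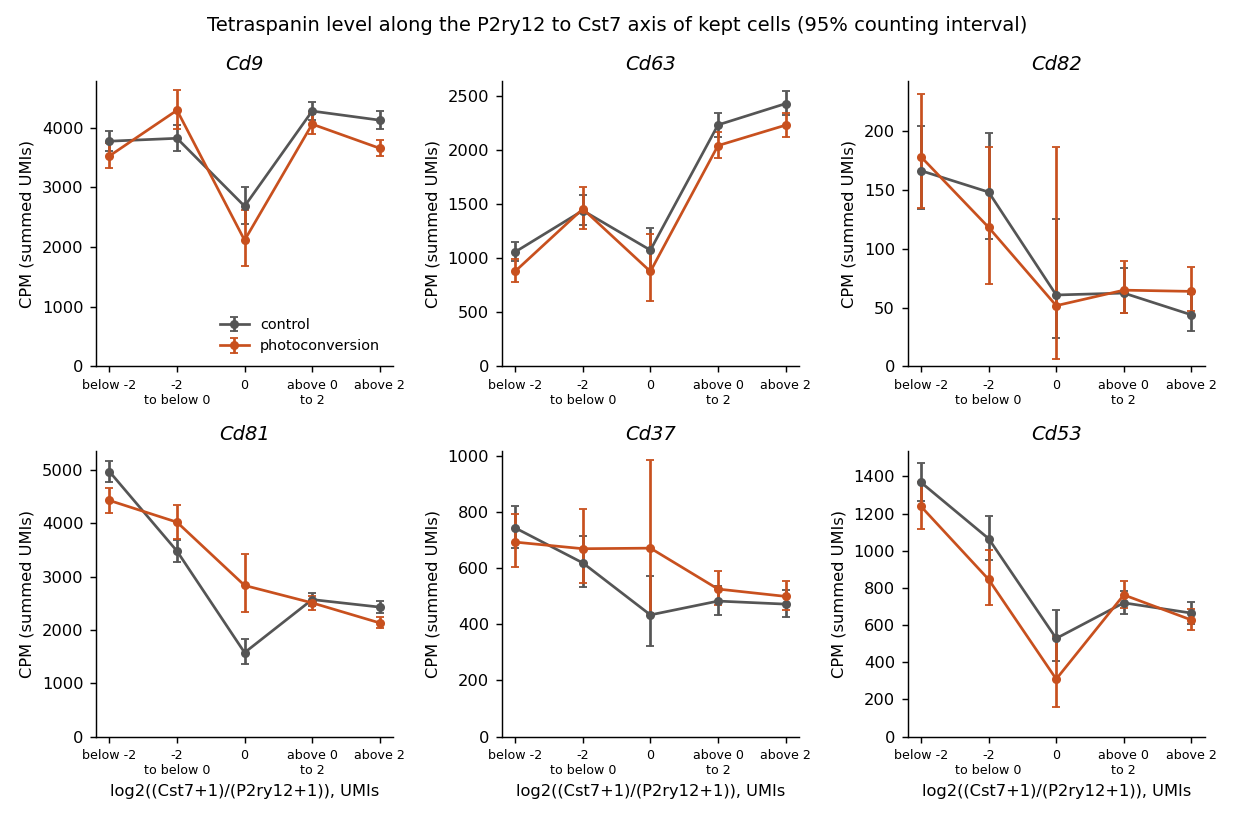
Level of each tetraspanin (y axis, CPM of summed UMIs, from 0) over 5 bins of log2((Cst7+1)/(P2ry12+1)) per cell (x axis) in the control (grey) and photoconversion (orange) library, with 95% counting intervals. Control Cd81 is 4974 CPM in the bin below -2 and 2430 CPM in the bin above 2, while Cd63 is 1058 and 2426 CPM in the same bins, and the bin at 0 holds the shallowest cells.

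Levels were also taken over a finer division by log2((Cst7+1)/(P2ry12+1)), counted in UMIs per cell. Its 2 lower bins together are the P2ry12-dominant cells and its 2 upper bins the Cst7-dominant cells, so it shows where within a state the levels differ and is no separate evidence of direction. From the bin below -2 to the bin above 2, control Cd63 was 1058, 1440, 1074, 2230 and 2426 CPM, and photoconversion Cd63 was 879, 1455, 877, 2039 and 2228 CPM. The bin at 0 holds the 58 control and 27 photoconversion cells with equal counts of Cst7 and P2ry12, mostly none of either, with median depths of 766.5 and 707 UMIs, and it does not continue the course of its neighbours. Control Cd81 was 4974, 3481, 1576, 2572 and 2430 CPM, and photoconversion Cd81 was 4432, 4024, 2837, 2510 and 2134 CPM. In the control the 2 bins below 0 had separate intervals and the 2 above 0 overlapping ones, and after photoconversion the 2 above 0 were the separate ones. Cd63 per Cd81 was 0.213, 0.414, 0.681, 0.867 and 0.998 over the control bins and 0.198, 0.362, 0.309, 0.812 and 1.04 over the photoconversion bins. Outside the bin at 0, Cd9 spanned 3774 to 4279 CPM in the control and was 3527, 4293, 4060 and 3655 CPM after photoconversion, lowest in the 2 outer bins.

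**Figure D4:**
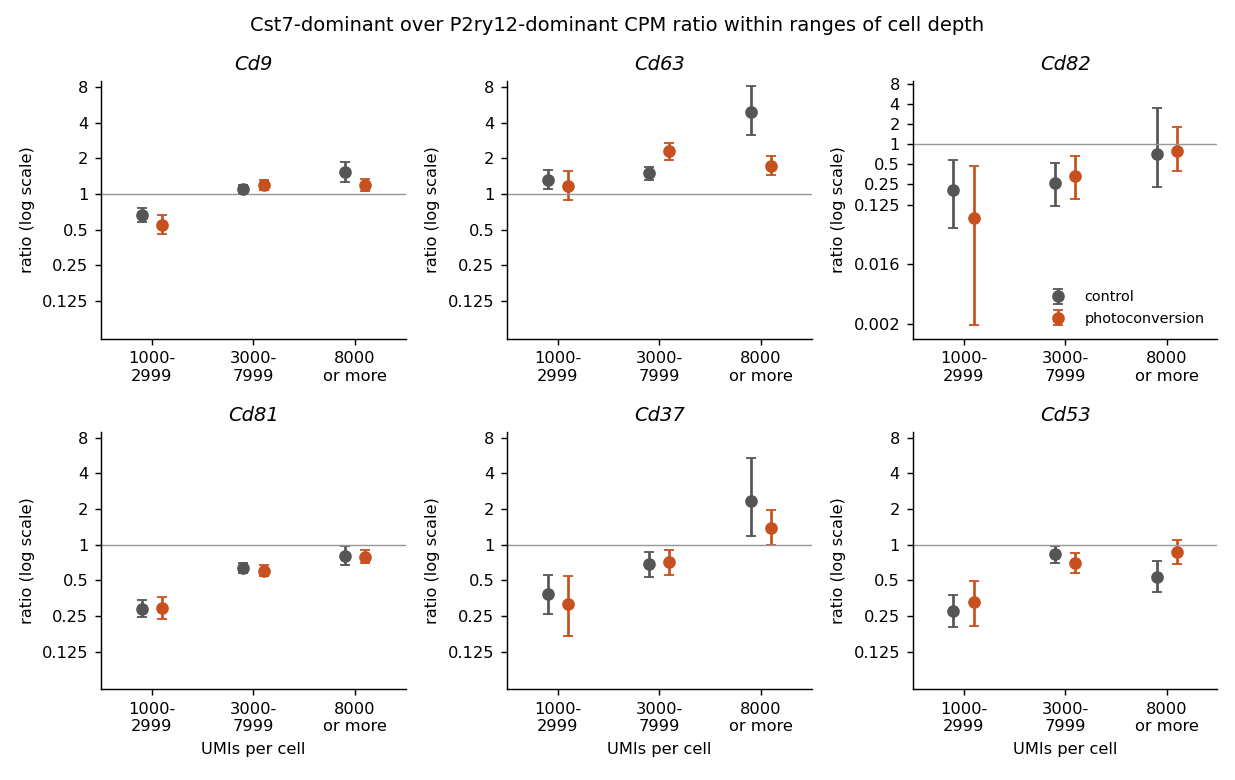
Ratio of Cst7-dominant to P2ry12-dominant CPM (y axis, log scale, with a wider range for Cd82) within 3 ranges of UMIs per cell (x axis) in the control (grey) and photoconversion (orange) library, with 95% counting intervals and a line at 1. Cd81 lies below 1 in all 3 ranges of each library, and Cd9 passes from 0.660 to 1.52 in the control.

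Because the states differ in depth, the ratios were also formed among cells of similar depth. From 3000 to under 8000 UMIs, where 49 Cst7-dominant and 105 P2ry12-dominant control cells and 47 of each after photoconversion could be compared, Cd63 had a ratio of 1.49 in the control and 2.29 after photoconversion. From 1000 to under 3000 UMIs the Cd63 ratio was 1.32 (1.09 to 1.59) and 1.18 (0.883 to 1.56), the latter not separated from 1 by its interval. From 8000 UMIs upward it was 4.92 and 1.74, with only 4 and 10 P2ry12-dominant cells. Under 1000 UMIs, a range with few UMIs that is not plotted, it was 2.06 (1.16 to 3.65) and 1.61 (0.694 to 3.92). Cd81 had ratios of 0.288, 0.638 and 0.804 from the shallow to the deep range in the control and 0.292, 0.602 and 0.792 after photoconversion. Its direction was kept in all 6, and the size of its ratio depended on depth.

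The other members also moved with depth. Cd9 had a ratio of 0.660 (0.575 to 0.755) in the shallow, 1.11 in the middle and 1.52 in the deep range of the control, and 0.551, 1.199 and 1.197 after photoconversion, so its direction turned between ranges. Cd53 had ratios of 0.276, 0.832 and 0.531 in the control and 0.325, 0.700 and 0.866 after photoconversion. Cd37 was at 0.382, 0.681 and 2.33, and at 0.315, 0.708 and 1.38. Its deep control ratio (1.17 to 5.41) rests on 8 UMIs in P2ry12-dominant cells, and the deep photoconversion interval (0.9996 to 1.97) includes 1. Cd82 was at 0.210, 0.267 and 0.709, and at 0.0784, 0.333 and 0.796. The deep Cd82 ratios rest on 3 and 9 UMIs in P2ry12-dominant cells, with intervals that include 1.

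The 2 states also differed in RNA composition within the shallow range. In the control 35 of these 49 cells, and after photoconversion 19 of 27, held no UMI of Malat1, a nuclear long non-coding RNA. Ribosomal protein genes took 27.5% of their UMIs against 8.98% in P2ry12-dominant control cells of the same range, and 31.6% against 10.2% after photoconversion. In Cst7-dominant control cells of the other ranges this share was 22.8 to 26.8%. In P2ry12-dominant control cells it was 17.7% from 3000 to under 8000 UMIs and 24.7%, in 4 cells, from 8000 UMIs upward. The difference between the states in this share was thus smaller in these deeper ranges. Microglia markers other than P2ry12 summed to 40177 CPM in Cst7-dominant and 95889 CPM in P2ry12-dominant control cells of the shallow range. The part of these features in the shallow ratios was not tested. When only cells with a Malat1 UMI were used, at all depths, the state ratios in the control and photoconversion library were 2.05 and 2.06 for Cd63, 0.580 and 0.553 for Cd81, 0.558 and 0.622 for Cd53, and 0.324 and 0.444 for Cd82. All of these lie within the intervals of the ratios from all kept cells.

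Scaling moved the values between states without turning any member's direction. In the control, scaling by edgeR's TMM in place of total UMIs raised log2 ratios by 0.17 and turned the split of genes at least 1.5-fold higher and lower from 335 and 683 to 493 and 490. DESeq2's median of ratios raised them by 0.19 and gave 504 and 475. Under TMM the control ratio was 2.20 for Cd63, 1.25 for Cd9 and 0.636 for Cd81, the same directions as with total UMIs. After photoconversion the shift was 0.05, and the split went from 297 and 439 to 330 and 401.

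Other tetraspanins were measured at lower counts, and none was higher in Cst7-dominant cells by 1.5-fold. Of all genes measured, 61.2% had a ratio below 1 in the control, with 27.6% past 1.5-fold lower, and 52.4% and 23.5% after photoconversion. In the control 8 of 25 listed genes had at least 100 UMIs, all 8 with a ratio below 1 and 3 of them past 1.5-fold, with a median log2 ratio of -0.36 (2 past 1.5-fold under TMM). After photoconversion 7 were measured, of which 6 had a ratio below 1 and 3 were past 1.5-fold, with a median of -0.48 (2 past 1.5-fold under TMM). Upk1b, a uroplakin tetraspanin, had the lowest control ratio, with 122.6 CPM in P2ry12-dominant and 35.4 CPM in Cst7-dominant cells, a ratio of 0.289 (0.203 to 0.407). Tspan7 had the highest, 0.839 (0.656 to 1.08). Tspan4 stood at 0.767 in the control and 0.718 after photoconversion, and Tspan3 at 0.634 (0.505 to 0.796) and 1.02 (0.741 to 1.43).

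Known partners of tetraspanins are given beside the same shares of all genes. Of 19 listed partners 11 were measured in the control, 10 with a ratio below 1 and 2 of these past 1.5-fold, with a median log2 ratio of -0.39, and these counts were the same under TMM. These 2 of 11 past 1.5-fold stand against 27.6% of all control genes, or 19.8% under TMM, and are too few to set apart from either share. After photoconversion 8 of 9 had a ratio below 1 and 5 were past 1.5-fold (4 under TMM), with a median of -0.63. There the share past 1.5-fold was above the 23.5% of all genes (21.4% under TMM). The adhesion receptor Icam1 had ratios of 0.320 (0.219 to 0.463) and 0.288 (0.194 to 0.425) in the control and photoconversion library. The leukocyte integrin subunit Itgb2 had ratios of 0.874 (0.745 to 1.03) and 0.731 (0.590 to 0.909). Ifitm3, an interferon-induced membrane protein, was the exception, at 1.12 (0.972 to 1.29) and 1.304 (1.03 to 1.66).

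Genes of vesicle formation and multivesicular bodies, the compartment in which Cd63 resides, lay on either side of 1. Of 20 listed genes 13 were measured in the control, 8 with a ratio above 1 and 5 below, none past 1.5-fold. Their median log2 ratio was 0.05, and under TMM 10 lay above 1, 1 of them past 1.5-fold, and 3 below. Of all control genes measured, 38.8% had a ratio above 1, with a median of -0.19. Past 1.5-fold, 13.5% of them were higher (19.9% under TMM) and 27.6% lower. After photoconversion 9 were measured, 5 above and 4 below (7 and 2 under TMM), with a median of 0.00. Of all genes there, 47.6% had a ratio above 1, with a median of -0.05. Past 1.5-fold, 15.9% were higher (17.6% under TMM) and 23.5% lower. Chmp4b, an ESCRT-III subunit, was highest, at 1.47 (1.13 to 1.93) and 1.52 (1.10 to 2.16), and was the 1 gene past 1.5-fold after photoconversion. The lysosomal membrane protein Lamp1, with 1149 and 2059 UMIs in the 2 control states, had ratios of 1.03 (0.954 to 1.10) and 0.969 (0.884 to 1.06). Lamp2 was at 1.07 (0.948 to 1.22) and 1.19 (1.01 to 1.416), and the recycling GTPase Rab11a at 0.729 (0.582 to 0.914) and 0.988 (0.731 to 1.35). The Cd63 ratio of 1.95 in the control lay above the ratio of each of these 13 genes.

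Across single cells the genes most like each member were listed. Likeness was Pearson's r of log-scaled UMIs over the 439 control and 272 photoconversion cells with at least 1000 UMIs, among 327 well-counted genes, and is a description, since cells share their library and vary in depth and state. The cathepsins Ctsb and Ctsd, lysosomal proteases, came first for Cd63, with r of 0.440 and 0.427 in the control and 0.513 and 0.474 after photoconversion. The complement gene C1qa was among the 2 nearest genes of Cd81, with r of 0.705 in the control and 0.616 after photoconversion. Cd9 had Ctsz, another cathepsin, as its nearest gene, at 0.597 and 0.623.

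Of the leukocyte members, Cd53 had Cd81 as its nearest gene in the control, with r of 0.477 there and 0.434 after photoconversion, followed by C1qa at 0.465 and 0.519. Cd37 had Cd81 among its 2 nearest genes, at 0.454 and 0.373. The sparse Cd82 had only weak values, Pld4 at 0.266 and 0.269 and Serinc3 at 0.257 and 0.269. Among member pairs Cd9 and Cd81 had an r of 0.529 in the control and 0.512 after photoconversion, whereas Cd63 and Cd81 had 0.104 and 0.012.

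Between the libraries the tetraspanins differed little. In all kept cells 0 of 6 members differed by 1.5-fold in either direction, against 4.96% of 4009 genes. In P2ry12-dominant cells 0 of 6 did, against 6.56% of 1646 genes, and in Cst7-dominant cells 0 of 6, against 3.59% of 2615 genes. These comparisons use the same cells as the state comparisons and are not independent of them. Over all genes, 67 were higher and 132 lower in all kept cells, 33 and 75 in P2ry12-dominant and 37 and 57 in Cst7-dominant cells. Under TMM these became 100 and 93, 43 and 60, and 47 and 47.

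**Figure D5:**
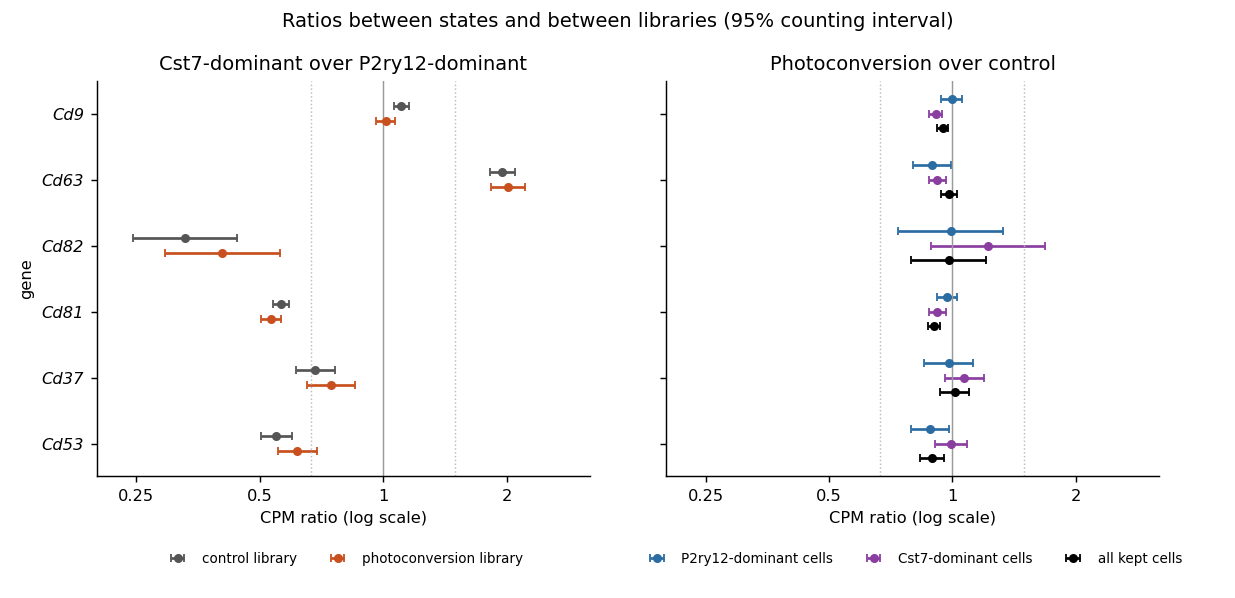
CPM ratios (x axis, log scale) of the 6 tetraspanins (y axis), between states in each library on the left and between libraries in each set of cells on the right, with 95% counting intervals, a solid line at 1 and dotted lines at 1.5-fold. On the left Cd63 lies beyond 1.5-fold to the right and Cd82, Cd81 and Cd53 to the left in each library, while on the right no point passes the dotted lines.

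Over all kept cells Cd81 had 3125 CPM in control mice and 2821 CPM in photoconversion mice, and the photoconversion-to-control ratio was 0.903 (0.871 to 0.936). Cd53 was at 880 and 786 CPM, a ratio of 0.894 (0.835 to 0.956), and Cd9 at 3985 and 3778 CPM, a ratio of 0.948 (0.919 to 0.978). For these 3 the interval excluded 1 on the lower side, though with 1 library per group the spread between mice is unknown. Under TMM the ratios were 0.943 (0.910 to 0.977) for Cd81, 0.934 (0.873 to 0.999) for Cd53 and 0.990 (0.960 to 1.02) for Cd9, the last no longer apart from 1. Cd63, at 1879 and 1842 CPM, had a ratio of 0.980 (0.937 to 1.03), Cd37, at 551 and 558 CPM, 1.01 (0.933 to 1.10), and Cd82, at 89.98 and 88.1 CPM, 0.979 (0.793 to 1.21). Cd63 and Cd82 turned to 1.02 under TMM, so neither has a direction here.

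The same ratios were formed within states. In Cst7-dominant cells Cd63 had a ratio of 0.920 (0.875 to 0.967), Cd9 0.912 (0.878 to 0.946) and Cd81 0.918 (0.875 to 0.964), while Cd53 was at 0.992 (0.905 to 1.09), Cd37 at 1.07 (0.961 to 1.19) and Cd82 at 1.22 (0.886 to 1.69). In P2ry12-dominant cells Cd63 was at 0.892 (0.800 to 0.994) and Cd53 at 0.882 (0.793 to 0.981), and the other 4 lay between 0.970 and 0.996 with intervals that included 1. Under TMM the P2ry12-dominant ratios of Cd63 and Cd53 were 0.928 (0.832 to 1.03) and 0.918 (0.825 to 1.02), whose intervals include 1, and those of the other 4 lay between 1.01 and 1.04. Cd63 by total UMIs was thus lower after photoconversion within each state and close to level over all cells. Cst7-dominant cells, in which Cd63 is high, gave 60.6% of kept UMIs in the control and 72.1% after photoconversion.

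The mix of states can be set apart from the levels within them by arithmetic. Control levels taken at the mix of the photoconversion library would give 2014 CPM of Cd63, 1.07 times the control level, and the within-state part is then 0.915. For Cd81 the mix would give 2976 CPM, a factor of 0.952, with a within-state part of 0.948. For Cd53 the factors were 0.947 and 0.944, and for Cd9 1.02 and 0.930. For Cd82 they were 0.891 and 1.098, and for Cd37 0.966 and 1.05. The 2 factors lay on opposite sides of 1 for Cd63, Cd9, Cd82 and Cd37 and both below 1 for Cd81 and Cd53.

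Markers of other cells and partner genes also differed between libraries. Endothelial and mural markers summed to 396 CPM in control P2ry12-dominant cells with 9 of 10 detected (Vtn at 0) and to 27.8 CPM in photoconversion ones with 5 of 10 detected (Cldn5, Flt1, Vtn, Rgs5 and Acta2 at 0), and in Cst7-dominant cells they summed to 96.8 and 269 CPM. Monocyte markers summed to 101 CPM over all kept control cells (Vcan at 0, 5 of 6 detected) and 19.3 CPM over photoconversion ones (4 of 6, Vcan and Chil3 at 0). In P2ry12-dominant cells they summed to 83.3 and 44.9 CPM and in Cst7-dominant cells to 7.498 and 9.16 CPM. The part of these markers in the Cd53 and Cd37 ratios was not tested. With cells set aside by the marker rule left out, the library ratio in all kept cells was 0.891 (0.860 to 0.924) for Cd81. It was 0.886 (0.828 to 0.948) for Cd53 and 0.940 (0.911 to 0.969) for Cd9. With those cells the 3 ratios were 0.903, 0.894 and 0.948. The rule took out 17 control and 8 photoconversion cells. These held 134 of the 244 monocyte marker UMIs of kept control cells and 0 of the 35 after photoconversion, so other kept cells still held such UMIs. Among the partners, Ifitm3 had 421 CPM in control and 246 CPM in photoconversion mice, with a photoconversion-to-control ratio of 0.585 (0.522 to 0.655), and was the 1 of 11 partners past 1.5-fold. It was also lower within each state, at 0.560 (0.439 to 0.711) in P2ry12-dominant and 0.652 (0.568 to 0.747) in Cst7-dominant cells. Itgb2 had a ratio of 0.772 (0.680 to 0.875). Of the other tetraspanins 7 of 8 had a ratio below 1, against 60.6% of all genes, and 0 passed 1.5-fold, against 4.96%. Their median log2 ratio was -0.24 against -0.06 for all genes.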

How the data were processed

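Droplet single-cell libraries (10x Chromium) of sorted cortical microglia were used, 1 control and 1 photoconversion library, each from 3 pooled mice. The authors deposited raw counts of UMIs for each gene in each barcode. The submitters' processing notes name bcl2fastq, Cell Ranger and the mm10 build, and the file headers give version 3.0.2 for Cell Ranger. Whether counting used strand is not given in the sources used here. A table that repeats these counts for the whole series was not used.

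Barcodes with at least 200 genes and at most 10% mitochondrial UMIs were kept, and doublets were not removed. States were set by comparing Cst7 and P2ry12 UMIs, and cells with equal counts belong to neither. UMIs were summed per group and scaled to CPM. Intervals are exact Poisson for levels, exact conditional binomial for ratios and Clopper-Pearson for shares, at 95%. A ratio of at least 1.5-fold in either direction, among genes with at least 100 UMIs in both sums together, was the call, with no test. List medians used 0.5 added UMIs. Thinning to 1000 UMIs used seed 1. Correlations used log1p of UMIs per 10000 among genes with at least 500 UMIs in each library.

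All 6 members were named. From each list the genes with the highest and lowest control state ratio and the 2 with most UMIs were named, and per member the 2 genes with the highest control correlation. Some of these values are not reported here. Members and lists were chosen with earlier results of these data known. Scaling alternatives used edgeR 4.0.16 and DESeq2 1.42.0 on the counts, and scripts ran in numpy 2.4.6, scipy 1.17.1 and pandas 2.3.3. The ratio step was tested on simulated data. All 6 symbols matched RefSeq, with 9 starts, and 1 list gene without a matching row is not analysed here.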

Additional observations from a re-analysis of the deposited data

How the results depend on the processing

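Each ratio was recomputed under 14 alternatives, of which thinning with the state set from all UMIs and keeping only cells with a Malat1 UMI were chosen after seeing the data. No called member changed direction. The control Cd63 ratio ranged from 1.41 to 2.22, past 1.5-fold in 13 of 14. It was 1.41, leaving 0 members higher in the control, when cells were thinned to 1000 UMIs and the state reset from the thinned UMIs, and 1.56 when they were thinned with the state kept. The ranges of depth are not among these alternatives. In them the control Cd63 ratio was 1.32 from 1000 to under 3000 and 1.49 from 3000 to under 8000 UMIs, both short of 1.5-fold. Below and above these ranges it was 2.06 and 4.92. The control Cd81 ratio was 0.678 and the photoconversion Cd53 ratio 0.698 in cells with at least 3000 UMIs, both short of 1.5-fold. Cd37 passed 1.5-fold in 5 of 14 alternatives in the control and 3 after photoconversion. Cd9 kept its direction in 11 of 14 in each library. With a fold of 2 as the call, 0 members were higher in the control and 1 after photoconversion, Cd63 at 2.01 (1.83 to 2.22). In each library 1 was lower, Cd82. The share of all genes past a fold of 2 is not given here. Between libraries 1 member, Cd82 in Cst7-dominant cells, passed 1.5-fold after thinning, at 0.477 with 4 against 11 UMIs, and 1 with the state from all UMIs, at 0.644 with 5 against 10.

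The background share depends on the UMI minimum. For genes higher in the control it was 29.4% at 500 UMIs and 22.2% without a minimum, and for lower genes 16.9% at 500. After photoconversion it was 29.8% and 26.8% for higher and 13.5% and 36.2% for lower genes. Between libraries it was 16.1%, 1.31% and 37.4% in all kept cells, 24.4%, 1.29% and 51.5% in P2ry12-dominant cells and 18.1%, 1.32% and 41.8% in Cst7-dominant cells, at 20 UMIs, 500 UMIs and no minimum. No paired analysis was possible because each group is 1 library, and for the same reason no library could be left out. Depth limits Cd82 most, with 77 UMIs in control Cst7-dominant cells.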

Other observations

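Barcodes under the 200-gene minimum, 1340 in the control and 1608 after photoconversion, also held tetraspanin UMIs. Cd81 was at 2466 CPM in the control and 1910.1 CPM in the photoconversion ones, and Cd9 at 1880.0 and 1765 CPM. Cd63 was at 811 and 951 CPM. For Cd81, Cd9 and Cd63 alike, these levels lay below those of the kept cells of the same library. Neutrophil markers summed to 1124 and 5198 CPM in these barcodes, against 2.06 and 4.96 CPM in the kept cells.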
